A study of Mus musculus with 19 samples.

Results

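Regulatory T cells infiltrating B16-F10 mouse melanomas are described here from single-cell RNA libraries of tumours grown from Mettl5 knockout (KO) cells or from scrambled-control (SCR) cells. METTL5 is an enzyme that methylates an adenosine of 18S ribosomal RNA, and the knockout was in the tumour cells. The labels give neither the strain nor any genetic change of the host mice for these libraries. Each genotype had 1 library, made from live CD45-positive cells sorted out of dissociated tumours and run on the 10x Genomics 5' platform. The library called SCR here carries the name WT in 1 label, while its title and its genotype label say scrambled control. The number of tumours or mice behind a library, the day of resection and whether the KO cells were 1 clone are not stated in the labels. Regulatory T cells were chosen by transcripts, counted as unique molecular identifiers (UMIs, each 1 captured mRNA molecule). A member had at least 1 Foxp3 UMI, at least 1 UMI of Cd3d, Cd3e or Cd3g, no UMI of Cd8a or Cd8b1, and less than 1% of its UMIs from the macrophage genes C1qa, C1qb, C1qc, Apoe and Lyz2. The rule found 63 cells among 8361 in the KO library and 86 among 8239 in the SCR library, 149 of 16600 in all.

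Regulatory T cells are CD4 T cells that restrain other immune cells, and the transcription factor FOXP3 sets their identity. They hold the high-affinity interleukin-2 receptor, whose alpha chain is CD25 (Il2ra), and the inhibitory receptor CTLA-4, which takes costimulatory ligands away from antigen-presenting cells. In tumours they are known to accumulate, often with the chemokine receptor CCR8 and TNF-family receptors such as 4-1BB (Tnfrsf9) and OX40 (Tnfrsf4) on their surface.

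Start-site windows of Foxp3, whose transcripts chose the cells, and of Tnfrsf9, a receptor found in most of them, are shown because IL-2 signals reach genes through STAT5 and antigen-receptor signals through AP-1. Of the 6 marker genes looked up (Foxp3, Il2ra, Ikzf2, Ctla4, Ccr8 and Tnfrsf9), 5 matched the RefSeq table, with 7 windows of 300 bases on GRCm38.p6; Ikzf2 was not matched. Capitals mark a STAT-type match (TTCNNNGAA) or an AP-1-type match (TGANTCA). Both Foxp3 windows lie on the plus strand, at chrX:7579426-7579725 and chrX:7580233-7580532, and the Tnfrsf9 window lies on the plus strand at chr4:150927749-150928048.
Foxp3 window 1: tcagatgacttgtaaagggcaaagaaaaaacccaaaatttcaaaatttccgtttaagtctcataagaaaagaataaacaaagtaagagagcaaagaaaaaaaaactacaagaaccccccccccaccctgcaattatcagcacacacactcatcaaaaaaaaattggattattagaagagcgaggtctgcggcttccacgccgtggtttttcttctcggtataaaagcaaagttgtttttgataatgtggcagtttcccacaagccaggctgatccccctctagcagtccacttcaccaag
Foxp3 window 2: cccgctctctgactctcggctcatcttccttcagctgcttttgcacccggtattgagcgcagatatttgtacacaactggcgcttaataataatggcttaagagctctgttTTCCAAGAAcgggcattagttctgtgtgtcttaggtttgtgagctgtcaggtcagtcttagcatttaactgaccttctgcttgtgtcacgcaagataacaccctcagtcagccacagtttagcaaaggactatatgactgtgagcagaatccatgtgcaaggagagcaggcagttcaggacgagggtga
Tnfrsf9 window 2: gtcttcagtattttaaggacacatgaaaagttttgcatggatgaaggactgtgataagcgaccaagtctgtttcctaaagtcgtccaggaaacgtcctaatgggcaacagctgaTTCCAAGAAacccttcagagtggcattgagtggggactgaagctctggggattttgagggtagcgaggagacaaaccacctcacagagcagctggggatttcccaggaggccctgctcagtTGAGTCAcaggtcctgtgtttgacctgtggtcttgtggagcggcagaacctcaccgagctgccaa
The STAT-type letters stood at bases 112 to 120 of Foxp3 window 2 and at bases 115 to 123 of the Tnfrsf9 window. The AP-1-type letters stood at bases 236 to 242 of the Tnfrsf9 window. Searched on both strands, the STAT-type letters occur in 8.30% of all 32851 promoter windows of the table, the AP-1-type letters in 7.81% and the forkhead-type letters GTAAACA in 3.65%. The forkhead-type letters were in none of the 7 windows, and the Il2ra, Ctla4, Ccr8 and first Tnfrsf9 windows held none of the 3 motifs. These matches describe letters and were not linked to the levels below.

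Regulatory T cells had a median of 9587 UMIs per cell in KO (range 659 to 45551) and 8779.5 in SCR (1355 to 44383), against 8035 and 8906 over all cells of the libraries. Their summed depth was 713279 UMIs in KO and 991814 in SCR. The libraries shared 116 barcodes, of which 1 belonged to a regulatory T cell in either library. Transcripts of other cell types were present in some members: macrophage, dendritic-cell and melanoma markers together made up at least 1% of UMIs in 20 of 63 KO and 31 of 86 SCR cells. Those cells were deeper, at a median of 13463 UMIs in KO and 14190 in SCR, against 6703 and 5157 in the remaining 43 KO and 55 SCR cells, which are called low-marker cells below. Low-marker cells were not alike in the libraries: macrophage markers made up 0.273% of their summed UMIs in KO and 0.163% in SCR. In 2 KO cells and in 0 SCR cells melanoma markers alone reached 0.5% of UMIs, and these 2 cells, at 45551 and 39444 UMIs, were the deepest of the KO set. With 1 library a genotype, no test of the genotype can be made, and every interval given covers counting error only.

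**Figure D1:**
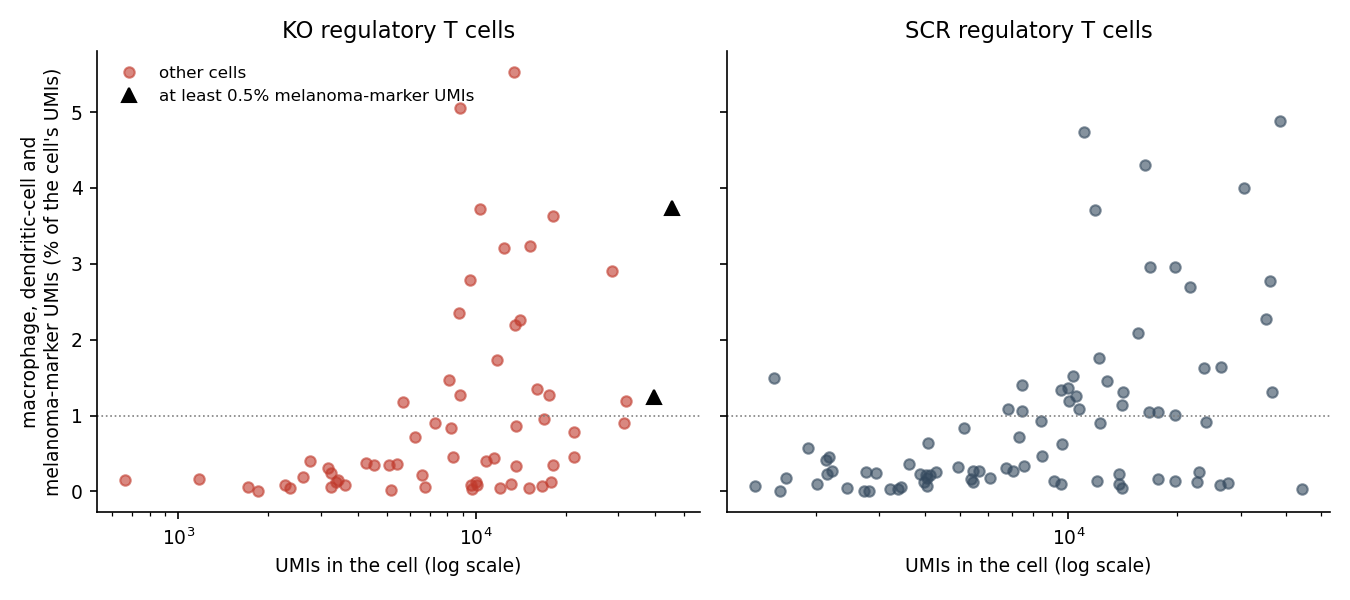
Macrophage, dendritic-cell and melanoma-marker transcripts in each regulatory T cell (vertical axis, % of the cell's UMIs) against the UMIs of the cell (horizontal axis, log scale), KO on the left and SCR on the right; each point is 1 cell. The dotted line is 1%, reached by 20 KO and 31 SCR cells, and the 2 black triangles are the KO cells with at least 0.5% melanoma-marker UMIs.

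The rule drew its members from 218 KO and 230 SCR cells with any Foxp3 UMI. No CD3 UMI was found in 81 of these in KO and 73 in SCR. Of the 137 KO and 157 SCR cells with both Foxp3 and CD3, 68 and 57 were left out for macrophage transcripts at or above 1%, and a further 6 and 14 for a CD8 UMI. Cells just outside the macrophage limit, at 1 to 1.25%, still held the marker genes: in CPM, a gene's UMIs scaled to the summed UMIs of the cells, the 10 such KO cells had 194 CPM of Il2ra and 503 CPM of Ctla4, and the 6 SCR cells had 170 and 302 CPM. Just inside it, at 0.75 to 1%, the 4 KO cells had 75.9 CPM of Il2ra and 247 CPM of Ctla4, and the 10 SCR cells had 208 and 724 CPM. Most members carried few Foxp3 molecules. A single Foxp3 UMI was found in 22 of 63 KO and 25 of 86 SCR cells, and 6 or more in 9 KO and 17 SCR cells, up to 13 in a KO cell and 16 in an SCR cell. Members with only 1 Foxp3 UMI had 137 CPM of Il2ra and 1004 CPM of Ctla4 in KO, and 113 and 623 CPM in SCR. Those with at least 2 had 221 and 1150 CPM in KO, and 251 and 1192 CPM in SCR. The single-UMI cells included 2 KO and 0 SCR cells in which melanoma markers reached 0.5% of UMIs. Without those 2, the other 20 KO cells had 202 CPM of Il2ra and 1454 CPM of Ctla4, so the level of Ctla4 in KO was then above that of the cells with at least 2 Foxp3 UMIs.

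Ikzf2, Ctla4 and Il2ra had a UMI in larger shares of regulatory T cells than of Foxp3-negative CD4 or CD8 T cells. Ikzf2, which encodes the transcription factor Helios, was detected in 92.1% of KO and 91.9% of SCR regulatory T cells, and in 31.8% and 26.7% of Foxp3-negative CD4 T cells. Ctla4 was detected in 90.5% of KO and 95.3% of SCR regulatory T cells, and in 52.3% and 48.9% of Foxp3-negative CD4 T cells. Il2ra was detected in 63.5% of KO and 62.8% of SCR regulatory T cells, and in 22.7% and 26.7% of Foxp3-negative CD4 T cells. UMIs of all 3 of these genes were found in 37 of 63 KO and 50 of 86 SCR regulatory T cells, and of none in 2 of each. Among Foxp3-negative CD4 T cells all 3 were found in 5 of 44 KO and 3 of 45 SCR cells. These CD4 cells had a median of 4604 UMIs in KO and 5705 in SCR, which lowers the share with a UMI of any gene.

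Background from free RNA was gauged in CD3-negative cells with at least 5% macrophage transcripts, at a median of 9343.5 UMIs in 138 KO and 12223.5 in 274 SCR cells. That choice left out cells holding CD3 RNA, so the shares of T-cell genes among them can understate the background. Foxp3 was found in 2.17% of those KO cells and 0.730% of those SCR cells, and Il2ra in 0 of either. Cd40lg, the CD40 ligand of helper T cells, stood the other way in both libraries: it was found in 0 of 63 KO regulatory T cells and in 4.65% of SCR ones, against 11 of 44 KO and 14 of 45 SCR Foxp3-negative CD4 T cells. The exact 95% binomial interval of 0 among 63 cells reaches 5.69%. Cd4 itself, which the rule did not use, had a UMI in 40 of 63 KO (63.5%) and 64 of 86 SCR (74.4%) regulatory T cells.

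**Figure D2:**
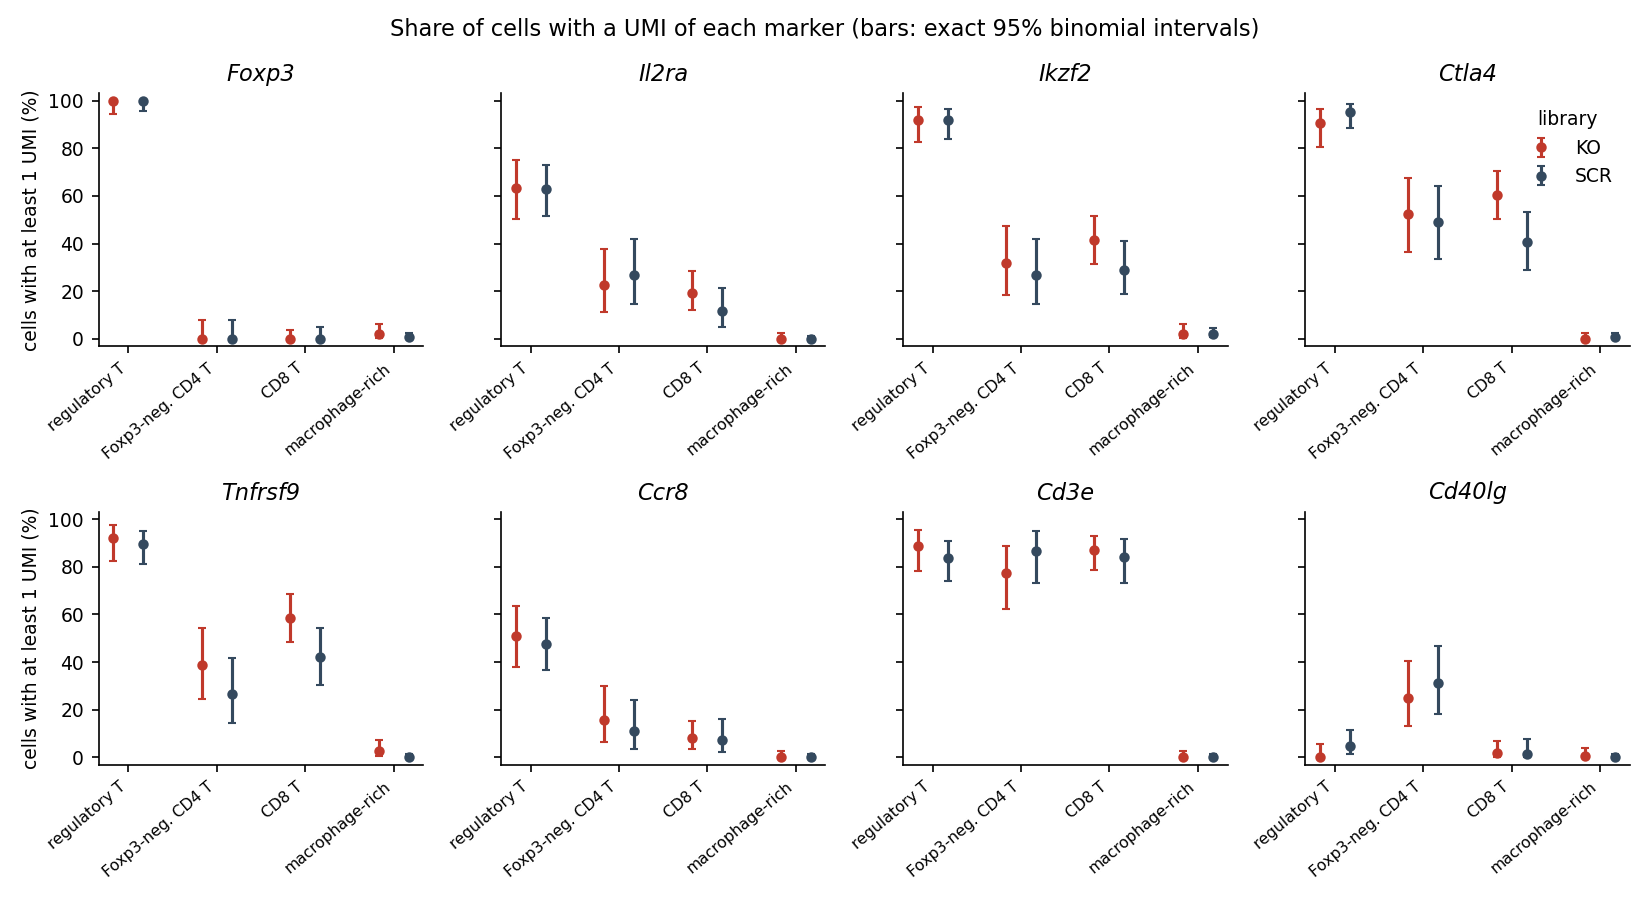
Share of cells with at least 1 UMI of each of 8 marker genes (vertical axis, %) in regulatory T cells, Foxp3-negative CD4 T cells, CD8 T cells and macrophage-rich cells, KO in red and SCR in dark blue; bars are exact 95% binomial intervals. Foxp3 chose the regulatory T cells and its 100% is the rule, whereas Ikzf2 stood at 92.1% in KO and 91.9% in SCR regulatory T cells and Il2ra at 63.5% and 62.8%. Macrophage-rich cells were chosen without CD3 UMIs, so their lack of Cd3e is also the rule.

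Measured marker levels varied more among the cells of a library than their medians did between the libraries. Foxp3 ranged over the cells from 0.220 to 30.4 UMIs per 10000 in KO, with a median of 2.83, and from 0.261 to 18.7 in SCR, with a median of 3.67. The KO extremes were 1 UMI in a melanoma-marker cell of 45551 UMIs and 2 UMIs in a cell of 659 UMIs. Counting error and depth are part of this spread and were not separated from it. Ctla4 had a median of 10.5 UMIs per 10000 in KO, with a maximum of 52.7, and 7.90 in SCR, with a maximum of 88.0. Medians of Ikzf2 were 5.97 in KO and 6.73 in SCR, and those of Tnfrsf9 7.11 and 6.76. Ccr8 was at 0 in 31 of 63 KO and 45 of 86 SCR cells. The cell values of the libraries overlapped for each of these genes.

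**Figure D3:**
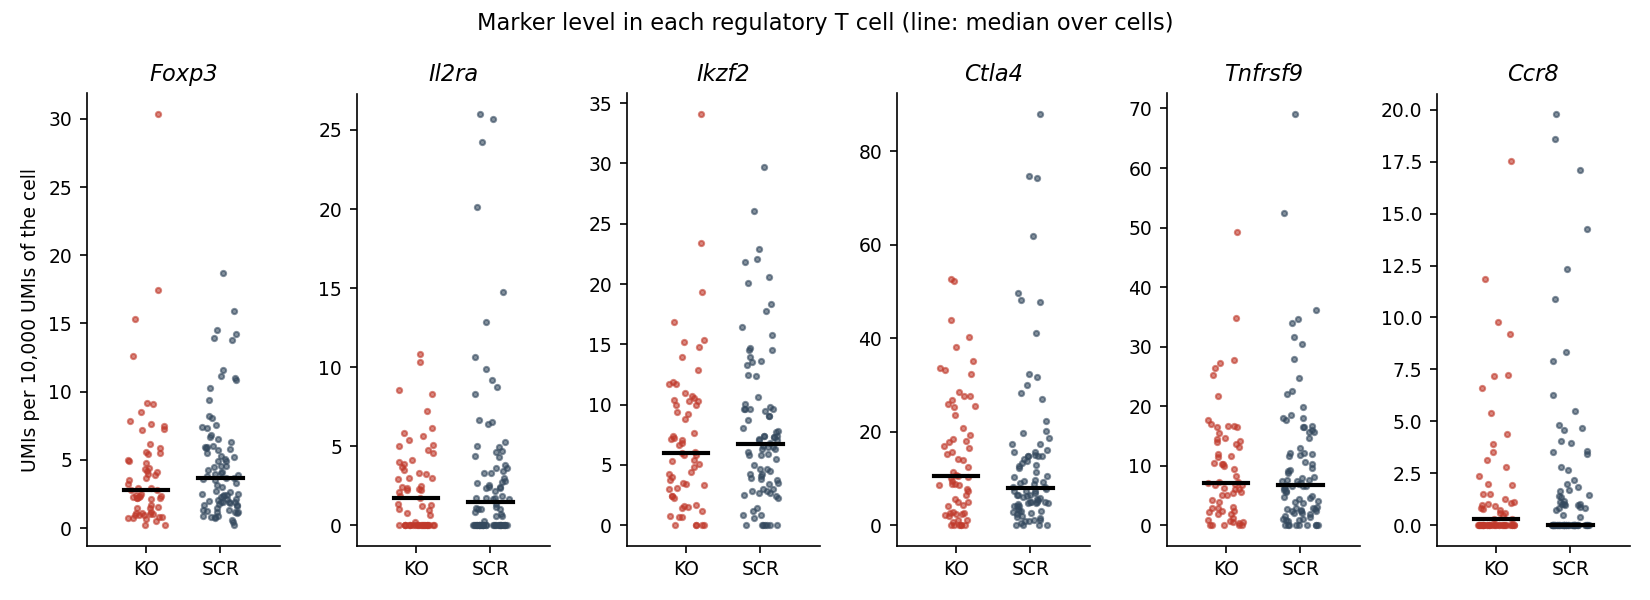
UMIs per 10000 UMIs of the cell (vertical axis, linear, own scale for each gene) of 6 marker genes in each regulatory T cell, KO in red at the left of each panel and SCR in dark blue; lines are medians over cells. The clouds overlap in every panel, with Foxp3 medians of 2.83 in KO and 3.67 in SCR.

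Regulatory T cells made up 0.753% of the cells past the filter in KO (exact 95% binomial interval 0.580 to 0.963%) and 1.04% in SCR (0.836 to 1.29%). The ratio was 0.722 with an interval of 0.513 to 1.01. Among T cells with under 1% macrophage transcripts, they were 63 of 394 in KO, or 15.99% (12.5 to 19.99%), and 86 of 342 in SCR, or 25.1% (20.6 to 30.1%), a ratio of 0.636 (0.452 to 0.890). CD8 T cells stood the other way, at 1.18% of all cells in KO and 0.837% in SCR, a ratio of 1.41 (1.03 to 1.95). Among the same T cells they were 25.1% in KO and 20.2% in SCR, a ratio of 1.25 (0.907 to 1.72) with an interval that included 1. Foxp3-negative CD4 T cells were at 0.526% of all cells in KO and 0.546% in SCR. These ratios compare 2 libraries, not the genotypes over animals, and the spread between tumours is not known. Thinning every cell to 1500 UMIs before the rule left 22 regulatory T cells in KO and 43 in SCR, or 8.37% and 17.2% of T cells.

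Beside Foxp3-negative CD4 T cells of the same tumours, regulatory T cells of both libraries had more transcripts of Tnfrsf9 and Tnfrsf4 and fewer of Cd40lg, Tnfsf8, Tnfsf11 and Ifng. A gene was counted as past 2-fold where the CPM ratio of the summed UMIs was at least 2, or at most 0.5, in each library, among 6216 genes with at least 50 UMIs over these cells. Of all those genes, 2.04% (127) were higher and 0.788% (49) were lower in regulatory T cells. Of the 14 regulatory T-cell identity genes measured, 4 were higher and 0 lower in both libraries, and the median log2 ratio was 0.83 in KO and 1.70 in SCR, against 0.11 and 0.07 over all genes. These 4 include Foxp3, which is there by the rule: it had 262 CPM in KO and 314 CPM in SCR regulatory T cells, and 0 UMIs in the Foxp3-negative cells of either. Ikzf2 had 589 CPM against 294 CPM in KO, a ratio of 2.002 (1.57 to 2.58), and 581 CPM against 91.5 CPM in SCR, a ratio of 6.35 (4.47 to 9.31). Il2ra was 2.83-fold higher in KO (1.73 to 4.92) and 3.24-fold higher in SCR (2.14 to 5.12), and Ctla4 2.41-fold (1.99 to 2.94) and 3.99-fold higher (3.25 to 4.96). Tigit, an inhibitory receptor, was 1.70-fold higher in KO and 10.3-fold higher in SCR, and so was past 2-fold in the SCR library alone.

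Of 10 TNF-family and costimulatory genes measured, 2 were higher and 3 lower past 2-fold in both libraries. Tnfrsf9 had 674 CPM in KO and 701 CPM in SCR regulatory T cells, against 256 and 88.7 CPM in Foxp3-negative CD4 T cells, which made ratios of 2.63 and 7.90. Tnfrsf4 gave ratios of 2.49 in KO and 5.56 in SCR. The ligands Cd40lg, Tnfsf8 (CD30 ligand) and Tnfsf11 (RANKL) were the 3 lower ones. Tnfsf11 had 22.4 CPM in KO and 20.2 CPM in SCR regulatory T cells, and 26.7 and 22.2 CPM in CD8 T cells. CD8 T cells were also low in Cd40lg, at 1.84 and 1.58 CPM, and in Tnfsf8, at 7.36 and 9.50 CPM. Tnfsf8 had 1 UMI in KO and 2 UMIs in SCR regulatory T cells, against 32 and 24 in the smaller sets of Foxp3-negative cells, ratios of 0.0116 (0.000285 to 0.0696) and 0.0303 (0.00347 to 0.122). Ccr8 had 130 CPM in KO and 162 CPM in SCR regulatory T cells and was 3.14-fold higher in KO (1.68 to 6.51) and 5.32-fold higher in SCR (2.90 to 10.9).

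Ifng, the cytokine of type 1 helper and CD8 T cells, had 40.7 CPM in KO and 55.5 CPM in SCR regulatory T cells, against 238 and 208 CPM in Foxp3-negative CD4 T cells. Tnf stood at ratios of 0.485 in KO and 0.442 in SCR, so 2 of the 7 helper genes measured were lower and 0 higher. S1pr1, the receptor that lets lymphocytes leave tissue, had ratios of 0.289 (0.133 to 0.615) and 0.249 (0.113 to 0.531). Klf2, a transcription factor that drives S1pr1, had 781 CPM in KO and 833 CPM in SCR regulatory T cells, with ratios of 0.583 and 0.553 that did not reach 2-fold. Ms4a4b, a membrane protein of T cells, stood at 0.275 in KO and 0.208 in SCR. In CD8 T cells Ifng had 173 CPM in KO and 329 CPM in SCR, and Ms4a4b 410 and 454 CPM, above regulatory T cells. S1pr1 had 9.20 and 14.2 CPM in CD8 T cells, against 19.6 and 13.1 CPM in regulatory T cells.

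Cell-division genes gave the longest list of higher genes: 9 of 28 were past 2-fold in both libraries and 0 were lower. Cdc20, an activator of the anaphase-promoting complex, gave 6.69 in KO (1.06 to 279) and 5.21 in SCR (1.67 to 26.3), and Ccnb2, a mitotic cyclin, 7.06 (1.83 to 60.4) and 4.80 (1.96 to 15.3). Cdca8, a subunit of the chromosomal passenger complex, had 55 UMIs in KO and 114 in SCR regulatory T cells, against 3 and 12 in Foxp3-negative cells. Ccnb2 had 47.8 CPM in KO and 64.9 CPM in SCR CD8 T cells, near the 53.3 and 66.5 CPM of regulatory T cells. For Cdc20 these were 52.4 and 38.0 CPM against 25.2 and 43.4 CPM, and for Cdca8 77.2 and 50.6 CPM against 77.1 and 114.9 CPM. The ratios thus describe the contrast with Foxp3-negative CD4 T cells. The other genes that led the comparison by the smaller of the library ratios included Phgdh, the first enzyme of serine synthesis from glucose (5.68 and 3.53), Sqle, an enzyme of cholesterol synthesis (7.44 and 3.55), and Iigp1, an interferon-induced GTPase (3.21 and 4.37). Acsl3, an enzyme that activates fatty acids, gave 13.4 in KO and 6.18 in SCR, and 61.1% of its KO UMIs came from a single cell.

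The ratios of Ikzf2, Il2ra, Ctla4 and Tnfrsf9 over Foxp3-negative CD4 T cells were smaller in KO when cells with other-cell transcripts were left out of both sides. Among 3617 genes measured there, 3.04% were higher and 1.82% lower past 2-fold in both libraries. Ratios of low-marker cells were 1.67 in KO and 7.51 in SCR for Ikzf2, 1.58 and 2.15 for Il2ra, 1.73 and 3.58 for Ctla4, and 1.91 and 8.46 for Tnfrsf9. Of 7 TNF-family and costimulatory genes measured there 0 were past 2-fold in both libraries, with Tnfrsf4 at 1.92 in KO and 4.83 in SCR. The ligands Cd40lg, Tnfsf8 and Tnfsf11 were not among them, since they fell under the minimum of 50 UMIs. On these few molecules, some at the floor, their ratios stayed low. They were 0.0357 in KO and 0.0626 in SCR for Cd40lg, 0.00952 and 0.0760 for Tnfsf8, and 0.183 and 0.237 for Tnfsf11. Among the identity genes 2 of 13 were then past 2-fold in both libraries: Foxp3, which the rule used, and Swap70. Swap70, named after its values were seen, stood at 10.2 in KO and 2.38 in SCR low-marker cells, and at 1.64 and 1.34 in all cells. Its KO ratio in low-marker cells rests on very few molecules on the Foxp3-negative side. Of 25 cell-division genes 10 were past 2-fold in both libraries, including Cdca8, at 10.7 in KO (1.83 to 432.5) and 13.7 in SCR (3.66 to 114.8). Ccnb2 stood at 6.91 (1.15 to 282) and 5.56 (1.79 to 27.9). These ratios rest on few molecules: the Foxp3-negative side held 1 UMI of Cdca8 in KO and 2 in SCR, and 1 and 3 of Ccnb2. Ifng stood at 0.124 in KO and 0.407 in SCR, and S1pr1 at 0.262 and 0.104. Egr1, an early-response transcription factor, joined the lower genes at 0.282 in KO and 0.205 in SCR.

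**Figure D4:**
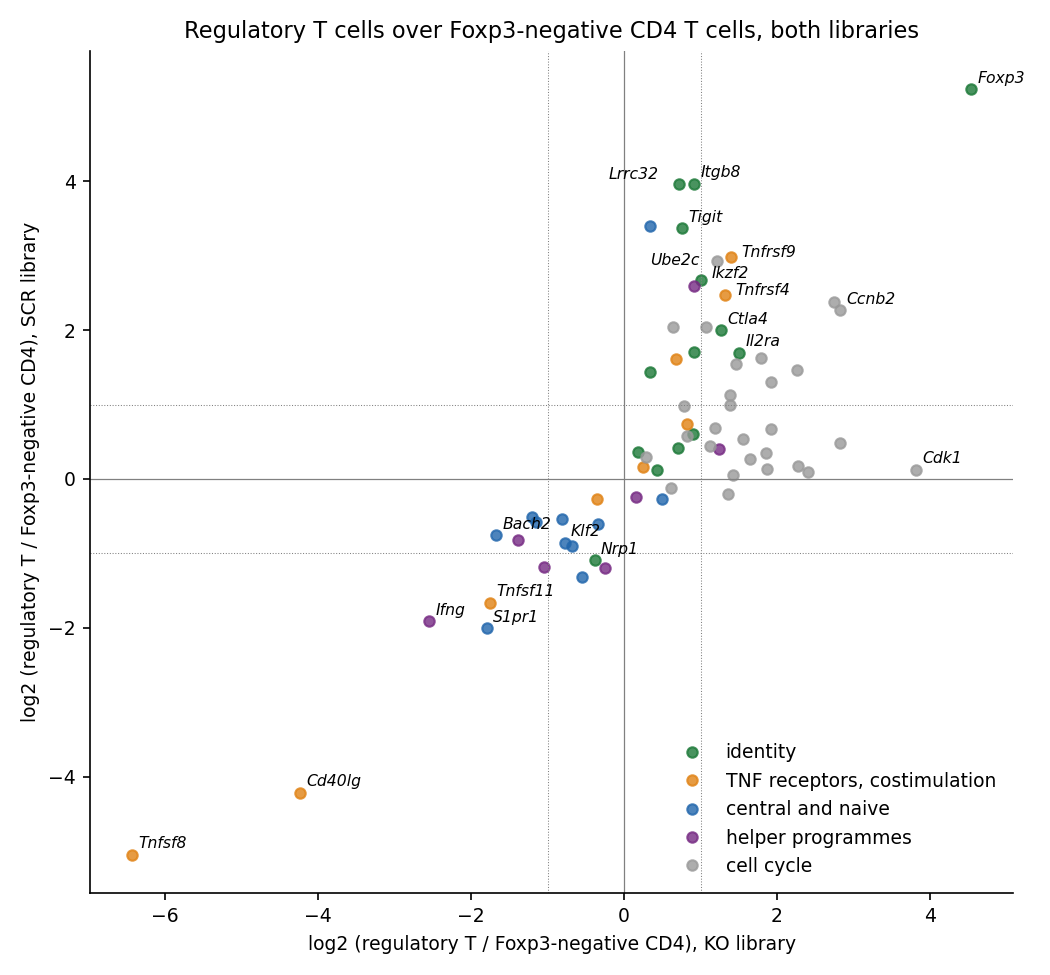
Log2 ratio of summed CPM of regulatory T cells over Foxp3-negative CD4 T cells in the KO library (horizontal) and in the SCR library (vertical); each point is a gene of 5 lists with at least 50 UMIs over these cells. Dotted lines mark 2-fold, and a gene with 0 UMIs on a side is drawn at a floor of 3 UMIs (Foxp3 in both libraries, Itgb8 in SCR and Cd40lg in KO). Tnfrsf9, Tnfrsf4, Ctla4 and Il2ra lie at the upper right and Cd40lg, Tnfsf8 and Ifng at the lower left.

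Genes with at least 50 UMIs over the regulatory T cells of both libraries numbered 5196, and the KO to SCR ratio of their CPM had a median log2 of 0.04. Of them 2.44% (127) were at least 2-fold higher in KO and 0.885% (46) at least 2-fold lower. Among the 14 identity genes 0 were past 2-fold in either direction, with a median log2 ratio of -0.03. Foxp3 had 262 CPM in KO and 314 CPM in SCR, a ratio of 0.836 (0.694 to 1.01). Il2ra had 192 CPM in KO and 225 CPM in SCR, a ratio of 0.854 (0.685 to 1.06). Ikzf2 had 589 CPM in KO and 581 CPM in SCR (1.01, 0.892 to 1.15), and Ctla4 had 1099 CPM in KO and 1085 CPM in SCR (1.01, 0.923 to 1.11). Cd3e, a chain of the T-cell receptor complex, had 383 CPM in KO and 423 CPM in SCR (0.904, 0.773 to 1.06). Foxp3 and CD3 transcripts chose the cells, so their ratios are a description. The KO sum of 713279 UMIs includes the 2 cells with melanoma markers, of 45551 and 39444 UMIs. Their UMIs lower the KO CPM of genes that are scarce in them, and the ratios of all cells were not corrected for this. The intervals of Il2ra, Ikzf2 and Ctla4, which the rule did not use, included 1, so a difference in these 3 was not detectable at this depth.

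Neither the IL-2 pathway nor the suppressor molecules had a member past 2-fold, among 12 and 15 genes measured, with median log2 ratios of 0.03 and 0.00. In low-marker cells each list had 1 of 11 members higher past 2-fold, named after their values were seen. Socs3, an inhibitor of cytokine signalling, was at 2.39 (1.42 to 4.15) there and 0.875 in all cells, and Cd83, an activation marker, was at 2.53 (1.75 to 3.69) there and 1.23 (1.01 to 1.48) in all cells. Il2rb and Il2rg, the signalling chains of the IL-2 receptor, had 254 and 426 CPM in KO and 282 and 405 CPM in SCR. Areg, a growth factor of tissue-repair regulatory T cells, had 486 CPM in KO and 538 CPM in SCR, and Tgfb1 had 398 and 425 CPM. Gzmb, the protease granzyme B, had 299 CPM in KO and 187 CPM in SCR, a ratio of 1.60 (1.31 to 1.96), and 1.42 (1.11 to 1.82) in low-marker cells. Il10, an anti-inflammatory cytokine, had 78.5 CPM in KO and 134 CPM in SCR, a ratio of 0.585 (0.421 to 0.806). The Il10 ratio was 0.967 (0.651 to 1.43) in low-marker cells, and a single cell supplied 35.7% of its UMIs in KO and 21.8% in SCR.

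Inhibitory receptors and their regulators, 8 genes measured, had 0 members past 2-fold and a median log2 ratio of -0.17. Tox, a transcription factor of chronically stimulated T cells, had 193 CPM in KO and 294 CPM in SCR, a ratio of 0.657 (0.533 to 0.807), and 0.589 (0.460 to 0.750) in low-marker cells. Pdcd1, which encodes PD-1, had 96.7 CPM in KO and 117 CPM in SCR, with an interval of the ratio from 0.605 to 1.12. TNF-family and costimulatory genes, 7 measured, had 0 past 2-fold: Tnfrsf9 stood at 0.962 (0.855 to 1.08), Tnfrsf4 at 0.936 (0.827 to 1.06), Icos at 1.18 (0.994 to 1.40) and Tnfrsf18, which encodes GITR, at 0.845 (0.722 to 0.987). In low-marker cells Tnfrsf18 stood at 0.877 (0.728 to 1.05), with an interval that included 1.

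Of 20 effector and tissue-programme genes 1 was higher past 2-fold and 0 lower. That gene was Irf4, a transcription factor that drives effector regulatory T cells downstream of the antigen receptor, with 105 CPM in KO and 49.4 CPM in SCR, a ratio of 2.13 (1.47 to 3.12). It was detected in 39.7% of KO and 32.6% of SCR cells, and its ratio was 1.89 (1.23 to 2.93) in low-marker cells. Id3, which helps keep the central state, was the 1 of 7 central and naive genes that was lower, with 23.8 CPM in KO and 68.6 CPM in SCR (0.348, 0.192 to 0.598). Its ratio stood at 1.84 (0.435 to 8.84) in low-marker cells, on the opposite side of 1. Chemokine receptors, 7 measured, had 0 past 2-fold and a median log2 ratio of -0.26: Ccr8 had 130 CPM in KO and 162 CPM in SCR (0.803, 0.615 to 1.04). Integrins and other adhesion genes, 11 measured, had 0 past 2-fold, with Cd44 at 611 CPM in KO and 465 CPM in SCR and Itgav, an integrin chain that activates TGF-beta, at 488 and 458 CPM.

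T-cell receptor signalling genes, 18 measured, had a median log2 ratio of -0.22, with 0 higher and 1 lower past 2-fold. The lower one was the receptor beta constant gene Trbc1, at 15.4 CPM in KO and 39.3 CPM in SCR (0.392, 0.181 to 0.781), whose count is uncertain because Trbc2 is nearly identical. Cd3g had 481 CPM in KO and 557 CPM in SCR (0.864, 0.753 to 0.991), and Lck, the kinase that starts receptor signalling, 250 and 298 CPM. Early response genes of the receptor, 16 measured, had Irf4 alone past 2-fold. In low-marker cells 15 were measured, and 1 was higher and 1 lower past 2-fold, with Irf4 at 1.89 (1.23 to 2.93). The higher one was Ier3, an immediate early gene, at 3.90 (2.89 to 5.34) in low-marker cells and 1.24 (1.08 to 1.43) in all cells, and the lower one was Irf8, at 0.346. Egr1 stood at 1.86 (1.41 to 2.45) in low-marker cells and at 0.747 (0.636 to 0.876) in all cells, on the other side of 1. Ier3 and Egr1 were picked out after their values were seen, and the part of macrophage transcripts in their low-marker ratios was not tested. Nr4a1, a reporter of recent antigen signals, had 592 CPM in KO and 572 CPM in SCR (1.03, 0.910 to 1.18). Targets and regulators of NF-kB, 15 measured, had 0 past 2-fold and a median log2 ratio of 0.11, with Tnfaip3, an inhibitor of the pathway, at 778 CPM in KO and 735 CPM in SCR. Of 7 helper-programme genes 0 were past 2-fold, and the median log2 ratio was -0.37. Rora had 356 CPM in KO and 353 CPM in SCR, Gata3, the type 2 regulator, 54.7 and 70.6 CPM, and Tbx21, the type 1 regulator, 43.5 and 45.4 CPM.

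Interferon-response genes had 2 of 31 members past 2-fold higher and 0 lower, with a median log2 ratio of 0.17 against 0.04 over all genes. In low-marker cells 0 of 21 measured members were past 2-fold and the median was 0.05, with Mx1 not among those measured. Mx1, an antiviral GTPase, had 68.7 CPM in KO and 28.2 CPM in SCR, a ratio of 2.43, and 2.45 (1.25 to 5.03) in low-marker cells; it was found in 15 KO and 17 SCR cells. Ifit3b had 47.7 CPM in KO and 22.2 CPM in SCR (2.15, 1.22 to 3.86), with 44.1% of its KO UMIs in a single cell and a ratio of 0.653 (0.240 to 1.64) in low-marker cells; it is nearly identical to Ifit3 and its count is uncertain. Abundant members stood on the other side of 1. Ifi27l2a had 1949 CPM in KO and 2561 CPM in SCR (0.761, 0.712 to 0.813) and Isg15 923 CPM in KO and 1125 CPM in SCR (0.820, 0.743 to 0.904). Class I antigen presentation had 0 of 18 genes past 2-fold, with B2m, the light chain shared by class I molecules, at 2001 CPM in KO and 2021 CPM in SCR.

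Of 28 cell-division genes 0 were higher and 1 was lower past 2-fold, and the median log2 ratio was -0.06. The lower gene was Ube2c, the ubiquitin-conjugating enzyme of the anaphase-promoting complex, with 78.5 CPM in KO and 254 CPM in SCR, a ratio of 0.309 (0.227 to 0.414). It was detected in 18 KO and 18 SCR cells, and its ratio was 0.313 (0.221 to 0.435) in low-marker cells. Without cells that held a Mki67 or Top2a UMI its log2 ratio was 1.10, on the other side of 0. Tuba1b, a tubulin with close paralogues, had 212 CPM in KO and 388 CPM in SCR (0.545, 0.449 to 0.660). In low-marker cells 3 of 25 division genes were lower past 2-fold, and the median of the list was -0.45. UMIs of Mki67 or Top2a, genes of dividing cells, were found in 41.3% of KO (29.01 to 54.4%) and 43.0% of SCR (32.4 to 54.1%) regulatory T cells, at a median depth of 12786.5 and 13835 UMIs. Thinned to 1500 UMIs, these shares were 23.2% and 20.6%.

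Glycolysis and hypoxia genes, 21 measured, had 0 past 2-fold and a median log2 ratio of -0.25. Gapdh had 1450 CPM in KO and 1805 CPM in SCR (0.803, 0.743 to 0.868), and Pkm, the last enzyme of the pathway, 1466 and 1842 CPM (0.796, 0.737 to 0.859). The median was -0.06 in low-marker cells, where Gapdh stood at 0.881 (0.789 to 0.984) and Pkm at 0.901 (0.808 to 1.00). Lipid and respiration genes had 1 of 17 higher, Scd2, a fatty-acid desaturase, at 63.1 CPM in KO and 18.1 CPM in SCR, of which 1 KO cell supplied 55.6%. Stress and immediate early genes, which tissue dissociation is known to induce, had 0 of 18 past 2-fold, with Fos at 1911 CPM in KO and 1854 CPM in SCR. Among low-marker cells, however, 3 of 18 were higher in KO, the median log2 ratio was 0.53, and Fos stood at 1.95 (1.72 to 2.20). The part of macrophage transcripts in these low-marker ratios was not tested.

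Genes of cell death had 1 of 14 members higher and 1 lower past 2-fold. Fas, the death receptor, had 51.9 CPM in KO and 23.2 CPM in SCR, a ratio of 2.24 (1.29 to 3.94), and was found in 33.3% of KO and 19.8% of SCR cells. Its ratio in low-marker cells was 3.13 (1.39 to 7.68), and no KO cell held more than 13.5% of its UMIs. Bbc3, which encodes the pro-apoptotic protein PUMA, had 18.2 CPM in KO and 46.4 CPM in SCR (0.393, 0.195 to 0.740). Mcl1, a survival factor, had 792 CPM in KO and 758 CPM in SCR.

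**Figure D5:**
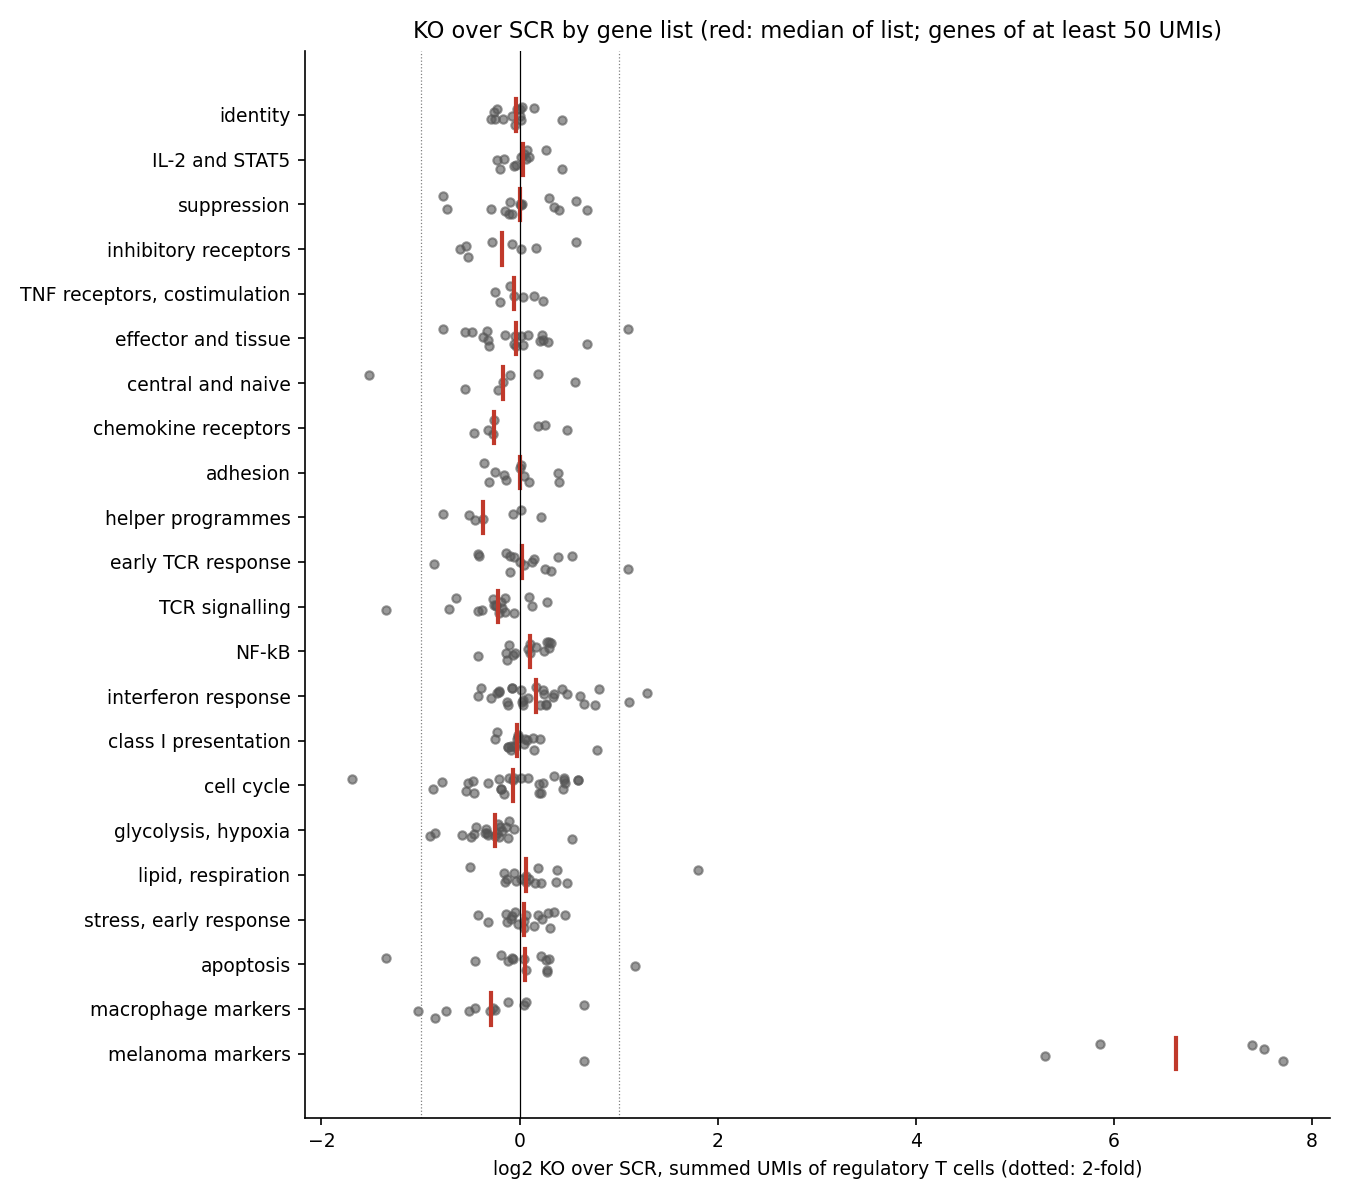
Log2 ratio of KO over SCR of summed CPM in regulatory T cells (horizontal axis) for each measured gene of 22 lists; grey points are genes with at least 50 UMIs and red bars are list medians. Apart from melanoma markers, whose median is 6.63, the medians lie between -0.37 (helper programmes) and 0.17 (interferon response), and few genes pass the dotted 2-fold lines.

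The highest KO to SCR ratios, some of them of pigment-cell genes, rested on the 2 KO cells with melanoma markers. Of 6 melanoma markers measured, 5 were higher past 2-fold: Pmel, a melanosome protein, had 850 CPM in KO and 5.04 CPM in SCR, and the 2 cells supplied 601 of its 606 KO UMIs. Dct, an enzyme of melanin synthesis, had 736 CPM in KO and 4.03 CPM in SCR, with 522 of its 525 KO UMIs in those cells, and Tyrp1 had 422 CPM in KO and 2.02 CPM in SCR. Prkg1, the highest ratio by the naming rule, had 212 UMIs in KO and 1 in SCR, a ratio of 295 (52.3 to 11698), and 211 of its UMIs were in the same 2 cells. The other genes at that end were Slc45a2, Slc24a5, Ankfn1, Chsy3, Ppargc1a, Aebp1, Serpinh1 and Unc5c. Without the 2 cells, 29 of 4877 genes were higher and 37 lower past 2-fold. The share of UMIs from melanoma markers was 0.249% in KO and 0.00565% in SCR regulatory T cells, 0.00532% and 0.00348% in low-marker cells, and 0.0829% and 0.101% in CD8 T cells.

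Without those 2 cells, the genes highest in KO were Cd93, at 98.7 CPM against 27.2 CPM in SCR (3.63, 2.27 to 5.93), Serpinb9, Ifi205, Ifitm1, Cmpk2, Ccnd1, Ssbp2, Mx1, Cdt1, Fas, Mir155hg and Ramp3. Serpinb9, an inhibitor of granzyme B, had 55.7 CPM in KO and 16.1 CPM in SCR, a ratio of 3.45 (1.86 to 6.68), in 21 KO and 13 SCR cells. Mir155hg, the host transcript of miR-155, had 98.7 CPM in KO and 40.3 CPM in SCR (2.45, 1.62 to 3.74), in 23 cells of each library. In contrast, Ifitm1 was found in 5 KO and 6 SCR cells, and 1 KO cell supplied 59.3% of its UMIs.

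Among the genes lowest in KO, Ccl8, a chemokine of macrophages, had 15.4 CPM in KO and 191 CPM in SCR, a ratio of 0.0809 (0.0397 to 0.148), and 1 SCR cell supplied 49.7% of its UMIs. Cbr2, Pltp, Lpl, Gda, Gdf15 and Cd209a were also low in KO, and Cd209a, a dendritic-cell lectin, was found in 4 KO and 4 SCR cells. Tnfsf9, the ligand of 4-1BB, had 23.8 CPM in KO and 78.6 CPM in SCR (0.303, 0.168 to 0.517). Knstrn, a protein of the mitotic spindle, was found in 6 KO and 20 SCR cells, and Ppih, a spliceosomal isomerase, in 10 and 26. Macrophage markers, 12 measured, had 1 lower past 2-fold, Mrc1, at 42.1 CPM in KO and 85.7 CPM in SCR. The macrophage-marker share of a cell ran from 0 to 1.69% in KO (median 0.239%) and from 0 to 1.56% in SCR (median 0.177%). Over the summed UMIs, from which these ratios are made, the order was reversed, at 0.496% in KO and 0.622% in SCR. The part of macrophage transcripts in these ratios was not tested.

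Among low-marker cells, 3.17% of 2875 genes were higher and 1.18% lower past 2-fold in KO. Il1b, an inflammatory cytokine, had 1311 CPM in KO and 109 CPM in SCR, a ratio of 12.1 (9.01 to 16.5), in 12 KO and 5 SCR cells. Ccl2, a monocyte chemoattractant, had 702 CPM in 10 KO cells and 106 CPM in 5 SCR cells. Arg1, an arginine-degrading enzyme of macrophages, had 324 CPM in 5 KO cells and 58.7 CPM in 4 SCR cells. A single cell supplied 73.8% of the Arg1 UMIs in KO and 77.8% in SCR. For Il1b these shares were 29.2% and 80%, and for Ccl2 37.9% and 53.1%. The other genes named by rule among the highest were Cxcl3, Inhba, Cxcl1, Pid1, Mmp12, Hspa1b, Ccl6, Tgfbi and Slfn4. In the same cells Lyz2 stood at 1.74 (1.35 to 2.25) and C1qb at 3.18 (2.38 to 4.30), and 2 of 7 macrophage markers and 3 of 4 dendritic-cell markers were higher past 2-fold. The part of myeloid transcripts in these ratios was not tested. The lowest were Ube2c, Ncapd2, Rrm2, Hmgn1, Cbx3, Irf8, Prdx3, Lsm6, Neb, Max, Pfkl and Strn3. Irf8, an interferon-regulated transcription factor, had 69.2 CPM in KO and 200 CPM in SCR low-marker cells (0.346, 0.215 to 0.540), in 17 and 23 cells.

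Subsets drawn by single genes took like shares of the regulatory T cells of each library, given the intervals. Ccr8 was found in 32 of 63 KO (50.8%, 37.9 to 63.6%) and 41 of 86 SCR cells (47.7%, 36.8 to 58.7%). Klrg1, a receptor of terminally differentiated effector cells, was found in 34.9% of KO and 36.0% of SCR cells, Il10 in 27.0% and 29.1%, Gzmb in 46.0% and 51.2%, and Areg in 44.4% and 47.7%. Every ratio of these shares had an interval that included 1, and the widest of those given, for Il10, ran from 0.470 to 1.79.

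Cells with a Ccr8 UMI held more Tnfrsf4 than cells without one in both libraries, at 841 against 365 CPM in KO (2.31, 1.87 to 2.87) and 892 against 352 CPM in SCR (2.54, 2.11 to 3.07). Il1r2, the decoy receptor for interleukin 1, stood at 1.94 (1.25 to 3.09) in KO and 3.20 (2.08 to 5.12) in SCR, and Ctla4 at 1.54 (1.33 to 1.79) and 2.01 (1.75 to 2.31). Cells with a Mki67 or Top2a UMI held less Il10 in both libraries, at 20.5 against 149 CPM in KO (0.137, 0.0562 to 0.293) and 63.7 against 241 CPM in SCR (0.265, 0.177 to 0.390). They also held less Il7r, the receptor of interleukin 7, at 0.531 (0.344 to 0.812) in KO and 0.358 (0.251 to 0.505) in SCR. In low-marker cells the Il7r ratio was 0.671 (0.401 to 1.11) in KO, with an interval that included 1, and 0.212 (0.114 to 0.378) in SCR. The Il10 ratio of the same split was 0.0604 (0.0120 to 0.188) in KO low-marker cells, from 3 UMIs against 46, and 0.414 (0.242 to 0.703) in SCR. In low-marker cells the Ccr8 split gave Tnfrsf4 ratios of 1.62 (1.25 to 2.13) in KO and 2.07 (1.61 to 2.70) in SCR, and Ctla4 ratios of 1.01 (0.845 to 1.20) and 1.21 (1.02 to 1.44), so the Ctla4 difference was smaller there. Depth differed between these subsets: cells with a Ccr8 UMI had a median of 9895 UMIs in KO and 11971 in SCR, against 8779 and 7301 in cells without.

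Genes whose detection followed that of Foxp3 most closely across 736 T cells of both libraries, 169 of them with a Foxp3 UMI, were Itgb8, Izumo1r, Tnfrsf4, Ikzf2, Ctla4, Cd4, Tnfrsf9 and Tigit. Itgb8, the beta chain of an integrin that activates TGF-beta, had the highest correlation of presence, an r of 0.564, and was found in 51.5% of cells with Foxp3 and 3.88% of those without. Izumo1r, the folate receptor 4 gene, had an r of 0.559 and was found in 58.0% and 6.53%. Correlations were higher in SCR than in KO for all 8 genes, for example 0.616 and 0.494 for Itgb8. The points share library and depth, since T cells with a Foxp3 UMI had a median of 10009 UMIs and those without 4957, and no p is given.

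Receptor beta variable (Trbv) genes were counted in the same libraries. A Trbv UMI was found in 50 of 63 KO and 68 of 86 SCR regulatory T cells, from 18 and 17 of the 35 Trbv genes in the table, and 42 KO and 52 SCR cells held a single Trbv gene. Trbv3, the Trbv gene of most UMIs, was found in 7 of 50 KO (14.0%, 5.82 to 26.7%) and 11 of 68 SCR cells (16.2%, 8.36 to 27.1%). Trbv13-1 was found in 6 KO and 3 SCR cells, Trbv1 in 2 and 3, and Trbv13-2 in 6 and 11. Trbv2, chosen after its values were seen, was found in 11 of 50 KO (22.0%, 11.5 to 36.0%) and 3 of 68 SCR cells (4.41%, 0.919 to 12.4%), and in 3 of 83 KO and 1 of 52 SCR CD8 T cells. Foxp3-negative CD4 T cells had the same order, at 4 of 31 in KO (12.9%, 3.63 to 29.8%) and 1 of 27 in SCR (3.70%, 0.0937 to 19.0%). Cells of 1 clone share a Trbv gene, and clones were not resolved in these counts.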

How the data were processed

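Single-cell UMI counts of 1 KO and 1 SCR library were used as deposited by the authors; Cell Ranger 8.0.1 made the matrices, per the file headers, and GRCm39 is among the builds in the submitters' processing notes. Of 8454 KO and 8341 SCR barcodes, those with 500 or more UMIs, 300 or more detected genes and a mitochondrial share below 10% were kept. Scrublet (scanpy 1.11.5) called 0 of 8361 KO and 0 of 8239 SCR cells doublets, so doublets were not removed. UMIs were summed per library and cell type and divided by the summed total (CPM). Ratios have exact conditional binomial 95% intervals and shares exact Clopper-Pearson ones, for counting error only. Genes with at least 50 UMIs were compared at 2-fold, and a side with 0 UMIs was set to a floor of 3. Genes were named by size: the 12 highest and 12 lowest KO to SCR ratios, the 15 highest and 12 lowest over Foxp3-negative CD4 T cells, up to 6 per list, the 4 Trbv genes of most UMIs and the 8 most like Foxp3. Predicted, ribosomal, mitochondrial and receptor variable genes were left out of the rankings. Some members of the lists are not reported here by name. The members and lists were chosen with earlier results of these data known. Alternatives included thinning to 1500 UMIs. The code was tested on simulated data. Python 3.11.15, numpy 2.4.6, scipy 1.17.1, pandas 2.3.3 and matplotlib 3.10.9 were used.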

Additional observations from a re-analysis of the deposited data

How the results depend on the processing

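The share of T cells that were regulatory stood at a KO to SCR ratio of 0.636, and between 0.486 and 0.707 under the alternatives run. The ratio of shares of all cells was 0.722, and it ran from 0.513 after thinning to 1500 UMIs to 0.891 with no macrophage filter. The number of genes past 2-fold depended on the cells and on the filter. Genes higher in KO numbered 127, and 33 with at least 2 Foxp3 UMIs a cell, 79 with no macrophage filter, 6 thinned, 37 without cells with Mki67 or Top2a, 422 and 36 with gene minimums of 20 and 100 UMIs, and 29 without cells of 0.5% melanoma markers. Genes lower in KO numbered 46, and 30 with at least 2 Foxp3 UMIs, 8 thinned, 112 by the mean of each cell's CPM, and 198 and 15 with minimums of 20 and 100 UMIs. Genes higher than in Foxp3-negative CD4 T cells numbered 127, and 12 thinned, 43 without cells with Mki67 or Top2a, 207 by the mean CPM, and 257 and 57 with minimums of 20 and 100 UMIs. Genes lower than in those cells numbered 49, and 17 with no macrophage filter, 7 thinned, 21 without cells with Mki67 or Top2a, 76 by the mean CPM, and 122 and 20 with minimums of 20 and 100 UMIs. Thinning and higher minimums leave fewer genes to compare; the other causes were not tested.

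Some genes changed side of a log2 KO to SCR ratio of 0. With at least 2 Foxp3 UMIs Mlana was at -0.21. With macrophage transcripts below 0.5%, Cbr2 was at 0.37 and Lpl at 0.88. With no macrophage filter, Ifit3b was at -0.61, Lpl at 0.47 and Gdf15 at 0.65. Thinned, Id3 was at 0.55, Ifit3b at -1.03 and Ppih at 0.23. Without cells with Mki67 or Top2a, Ube2c was at 1.10, Cd209a at 0.99, Mlana at -2.03 and Cbr2 at 0.61. Alternatives that left out cells with other-cell transcripts were chosen after seeing the data. Without cells of 0.5% melanoma markers Mlana was at -0.93. Without cells of 1% other markers, Id3 was at 0.88, Ifit3b at -0.61, Lpl at 1.29, Tnfsf9 at 0.42, Gda at 0.29 and Gdf15 at 0.83. The causes were not tested. Scaling by the median ratio and the stricter cell filter left all 321 gene ratios within their intervals, and thinning left 93 of 256.

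No paired analysis was possible because each genotype had 1 single-cell library, with no replicate number. The alternative without called doublets was not run, since Scrublet called 0 cells. The melanoma-marker median could not be given after thinning, when no member reached the minimum.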
